A study of Danio rerio with 12 samples.

Results

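The genes described here encode the protein factors that carry out translation, the initiation, elongation and termination factors, together with the aminoacyl-tRNA synthetases that load amino acids onto tRNA. They were taken from the Affymetrix Zebrafish Genome Array as every probe set annotated to a single gene whose symbol starts with eif or eef and a digit, starts with etf1, or is a tRNA synthetase symbol such as iars1. This gave 113 probe sets for 86 genes, out of 15502 probe sets on the array, of which 10795 were annotated to 1 of 8796 genes by gene identifier, and 19 of the 86 genes had more than 1 probe set. Another 3 probe sets carried such a symbol beside a second gene and were not counted.

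Translation begins when eIF2 brings the initiator tRNA to the small ribosomal subunit and the eIF4 group recruits the capped end of the mRNA. The elongation factors then deliver charged tRNAs and move the ribosome along, and the release factor frees the finished protein at a stop codon. Phosphorylation of the alpha subunit of eIF2 and the binding of inhibitor proteins to eIF4E are the classical points at which cells under stress or short of nutrients slow this process. Many of these genes exist in zebrafish as a pair of copies, written with a final a and b, which makes it possible to follow both copies of a factor in the same RNA.

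Whole zebrafish embryos of the wild-type AB strain were compared in 6 pools exposed to morphine and 6 untreated control pools. Morphine, an opioid agonist, was added at 10 nM to the E3 embryo medium from 5 hours post-fertilization (hpf) onwards, and all embryos were collected at 24 hpf, while the nervous system was being formed. Each pool held the RNA of about 100 embryos and was hybridized to 1 array, and its values are log2 signals after Robust Multi-array Analysis (RMA). The comparison addresses which transcripts differ in embryos after chronic exposure to the drug, and a positive difference always means a higher signal in the morphine pools.

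The 12 arrays had nearly equal median log2 signals, between 5.814 and 5.855, and correlated with each other at 0.99 to 0.999 across probe sets. The difference between the 3′ and 5′ probe sets for actin, a measure of RNA integrity and labelling, was 3.514 to 5.318 on the morphine arrays and 3.577 to 4.93 on the control arrays, and it was lowest on morphine array 1 and control arrays 1 and 2. Markers of the embryo's main tissues were present, with 14 of 16 above the array median. Of these 16 markers 4 were called, all lower in the morphine pools, where 6.85% of all probe sets were called and 3.72% called lower. The 4 were the muscle and heart genes mylpfa (difference -0.40), tnnt2a (-0.41) and myl7 (-0.22) and the pigment cell gene dct (-0.29). The other muscle genes on the list were not called, with 0.07 for actc1b (adjusted p = 0.711) and -0.07 for ckma (adjusted p = 0.641). The summed signal of the 5 skeletal muscle and heart markers was 14.19 to 14.46 on the morphine arrays and 14.26 to 14.48 on the control arrays on a log2 scale. For all 16 markers it was 15.47 to 15.68 on the morphine arrays and 15.51 to 15.68 on the control arrays. Signals were summed before the log2 was taken, so the brightest markers, such as actc1b, dominate. The sums therefore cannot show a change in dimmer markers such as tnnt2a and myl7. The part of tissue composition in the differences below was not tested, and in RNA from whole embryos fewer cells of a type cannot be told apart from less RNA per cell.

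Most translation genes, like most probe sets of the array, had nearly the same signal in both groups. The fitted difference lay within 10% of no change for 98 of the 113 probe sets. It was under 0.2 log2 units for 106 of them, and for 14015 of all 15502 probe sets. With limma, and p-values adjusted by Benjamini-Hochberg across the 15502 probe sets, 6 members (5.31%) passed an adjusted p of 0.10, against 6.85% of all probe sets. By direction, 3 members were called higher, where 3.13% of all probe sets were called higher, and 3 were called lower, where 3.72% of all were called lower. The members were thus called about as often as the array as a whole. At an unadjusted p under 0.05 the count was 16 members (14.2%), against 16.6% of all probe sets.

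Probe sets called higher in morphine pools were those of eif4a2, an RNA helicase of the cap-binding group, eif3hb, a copy of the h subunit of eIF3, and eif1axa, a copy of the scanning factor eIF1A. Called lower were those of iars1, the cytosolic isoleucyl-tRNA synthetase, eif4g2a, a relative of the eIF4G scaffold, and eif2s1a, a copy of the alpha subunit of eIF2. For eif1axa and eif4g2a another probe set of the gene was not called. The call of eif1axa was lost whichever array was left out, and that of eif2s1a with some arrays left out. The study had already listed eif4a2 and eif3hb as up-regulated. It had listed iars, eif4g2a and eif2s1l, here iars1, eif4g2a and eif2s1a, as down-regulated. Signals of the morphine and control arrays did not overlap for 7 members (6.19%), against 3.61% of all probe sets, and these were the 6 called probe sets and eef1a1a.

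**Figure D1:**
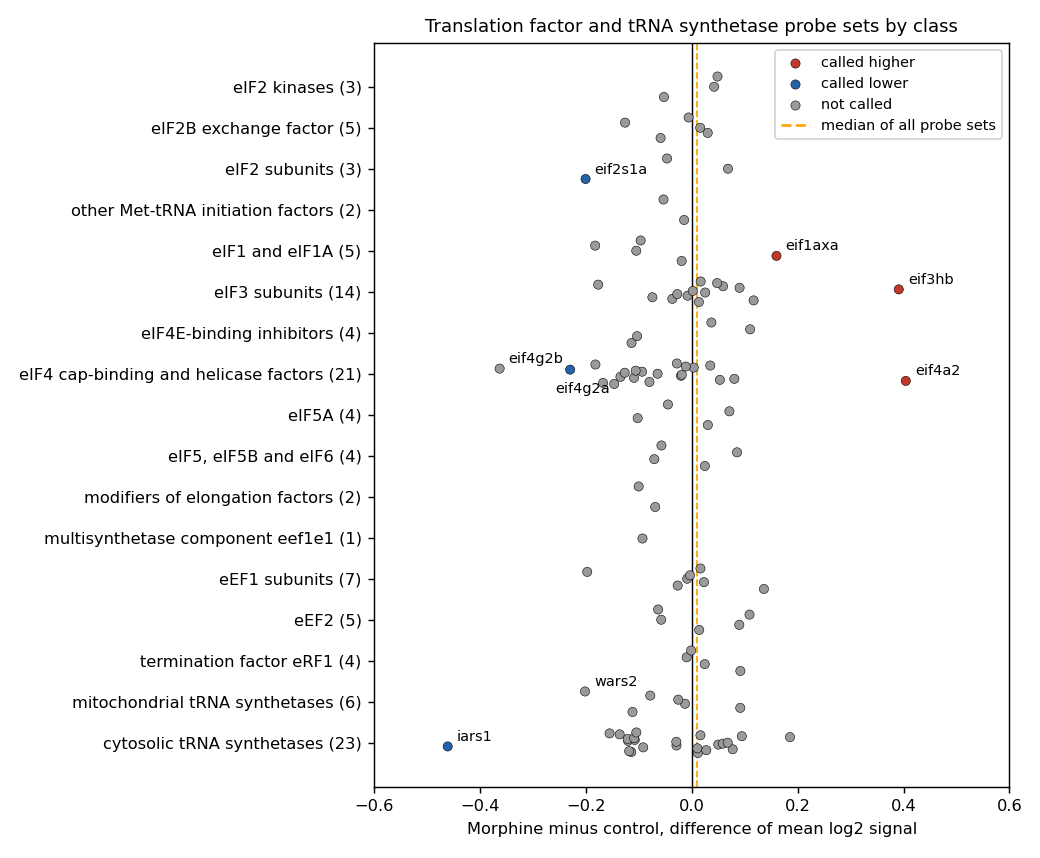
Difference in mean log2 signal, morphine minus control, for each of the 113 probe sets (points) in each functional class (rows, with the number of probe sets in brackets); coloured points passed an adjusted p of 0.10 in limma and the dashed line marks the median of all 15502 probe sets, 0.0089. iars1, eif4a2 and eif3hb lie farthest from 0, while 106 of the 113 points are within 0.2 log2 units of it, as are 14015 of all 15502 probe sets.

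Over all members the differences leaned slightly to the lower side. Their median was -0.0205, against 0.0089 for all probe sets, and 68 of 113 (60.2%) were below 0, against 46.2% of all. The middle 90% of the members lay between -0.19 and 0.11, against -0.20 to 0.19 for all probe sets. The gap between the members' median and that of all probe sets was -0.0294, and it was -0.0121 after a further quantile normalization of the arrays. The SD of the members' median signal between arrays of a group was 0.0185, and the lean is given as a description only.

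Among the eIF2 proteins, eif2s1a was the member that differed. Its log2 signal was 9.03 at the lowest, 9.24 at the median and 9.34 at the highest in the morphine pools, and 9.36, 9.40 and 9.49 in the control pools. Every morphine pool was therefore below every control pool, although the nearest values of the groups lay close together. The difference was -0.20 (SE 0.06, adjusted p = 0.0589), or 0.870 times the control signal. The call was lost without control array 1, 3 or 6 or morphine array 2 or 4, with an adjusted p of up to 0.13.

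The other copy of the alpha subunit, eif2s1b, had 10.36, 10.50 and 10.78 in morphine pools and 10.41, 10.46 and 10.49 in control pools as lowest, median and highest. These ranges overlapped, and the spread was wider in the morphine pools (SD 0.172) than in the control pools (SD 0.0329). Its difference was 0.07 (adjusted p = 0.695). The beta subunit gene eif2s2 differed by -0.05 (adjusted p = 0.71).

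The factors around eIF2 were not called. The 5 subunits of eIF2B, which reloads eIF2 with GTP, had differences between -0.13 (eif2b4, adjusted p = 0.414) and 0.03 (eif2b2, adjusted p = 0.862). The kinase eif2ak3, known as PERK, phosphorylates the alpha subunit of eIF2 when unfolded proteins gather in the endoplasmic reticulum. Its 3 probe sets differed by -0.05 to 0.05. The genes eif2a and eif2d, whose proteins can deliver tRNA to the ribosome without eIF2, differed by -0.01 (adjusted p = 0.945) and -0.05 (adjusted p = 0.697).

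eIF1A helps the small subunit scan for the start codon, and its 2 genes were covered by 5 probe sets. The called eif1axa probe set ranged from 7.70 over a median of 7.74 up to 7.78 in the morphine pools, and from 7.40 over 7.61 up to 7.64 in the control pools. The groups did not overlap and the morphine pools lay close together. The difference was 0.16 (SE 0.05, adjusted p = 0.0967), and the probe set no longer passed when any 1 of the 12 arrays was left out (adjusted p 0.107 to 0.166). The other eif1axa probe set, whose name marks sequence shared between transcripts, differed by -0.02 (adjusted p = 0.914).

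All 3 probe sets of the second copy, eif1axb, had a lower mean in the morphine pools, by 0.10 to 0.18 log2 units, and none was called. The largest of these differences was -0.18, with lowest, median and highest of 8.74, 8.95 and 9.11 in morphine pools and 8.96, 9.09 and 9.23 in control pools. The ranges overlapped, with an adjusted p of 0.151. Without morphine array 5, the highest of the morphine pools there, the difference was -0.22 and the adjusted p 0.061. Leaving out any 1 of the other 11 arrays gave no call (adjusted p up to 0.303).

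eIF3 is the large scaffold that holds the small subunit ready for mRNA. Of its 14 probe sets 1 (7.14%) was called, against 6.85% of all probe sets. The called one was eif3hb, whose log2 signal was 4.78, 4.89 and 5.04 in the morphine pools and 4.40, 4.50 and 4.68 in the control pools as lowest, median and highest. The groups were fully separated. The difference was 0.39 (SE 0.06, adjusted p = 0.000732), or 1.31-fold, and it kept its call without any 1 of the arrays. The signal was below the median of the array in both groups, where RMA values carry more background, and a dim-probe filter of log2 signal 5 on 6 arrays removed the probe set.

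The first copy of the same subunit, eif3ha, differed by 0.00 (adjusted p = 0.995). The other eIF3 subunits had differences between -0.18 for eif3jb (adjusted p = 0.257) and 0.12 for eif3c (adjusted p = 0.369). The brightest, eif3f, averaged 12.66 in the morphine pools and 12.68 in the control pools, with a difference of -0.03 (adjusted p = 0.869). Apart from eif3hb and eif3jb, the differences of the other 12 subunits lay between -0.07 and 0.12.

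The eIF4 group binds the mRNA cap, unwinds the leader and connects it to the ribosome, and it held the largest difference among the initiation factors, that of eif4a2, followed by eif3hb of the eIF3 class. The helicase gene eif4a2 had 8.58, 8.74 and 9.07 in the morphine pools and 8.27, 8.44 and 8.49 in the control pools as lowest, median and highest. All morphine pools were above all control pools, and 2 of them, pools 2 and 6, stood above 9. The difference was 0.40 (SE 0.08, adjusted p = 0.00781), or 1.32-fold, and the call held without any 1 of the arrays (adjusted p 0.00398 to 0.0225).

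The other helicase genes of this family were not called. The brightest probe set of eif4a1a differed by -0.15 (adjusted p = 0.293) and eif4a1b by -0.08 (adjusted p = 0.58). The related gene eif4a3, whose protein marks exon junctions, differed by 0.05 (adjusted p = 0.707).

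eif4g2a and eif4g2b encode copies of an eIF4G relative, known in mammals as DAP5, that lacks the eIF4E-binding part and serves translation without the cap-binding protein. The called eif4g2a probe set had 9.41, 9.61 and 9.65 in morphine pools and 9.70, 9.79 and 9.95 in control pools as lowest, median and highest. The groups did not overlap, and morphine pool 5 was the lowest of all. The difference was -0.23 (SE 0.06, adjusted p = 0.0321), or 0.853 times the control signal, and it was called without any 1 of the arrays (adjusted p 0.0299 to 0.0846). The second eif4g2a probe set had a difference of -0.11 with overlapping groups (adjusted p = 0.593).

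The probe set for eif4g2b had a larger difference and a wider spread. Its lowest, median and highest signals were 8.19, 8.46 and 8.67 in morphine pools and 8.52, 8.73 and 9.24 in control pools. The ranges overlapped, with morphine array 1 at 8.67 and morphine array 2 at 8.54, against 8.56 on control array 5 and 8.52 on control array 6. Control arrays 1 and 2 stood at 9.16 and 9.24, above the other control arrays, which lay between 8.52 and 8.75. The difference was -0.36 (SE 0.12) with an adjusted p of 0.109, just outside the threshold. The study, which used SAM on these arrays, had listed eif4g2b as down-regulated. Pairing pools by replicate number gave an adjusted p of 0.0101, and leaving out control array 5, control array 6 or morphine array 1 gave 0.0676 to 0.0805. The other 9 omissions of 1 array gave no call, with an adjusted p of up to 0.216. Over all 12 omissions the difference ran from -0.42 to -0.28. Control arrays 1 and 2 and morphine array 1 were also the arrays with the lowest actin difference. Without those 3 arrays the difference was -0.22 (adjusted p = 0.166), and with the actin difference as a covariate -0.32 (adjusted p = 0.0626).

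**Figure D2:**
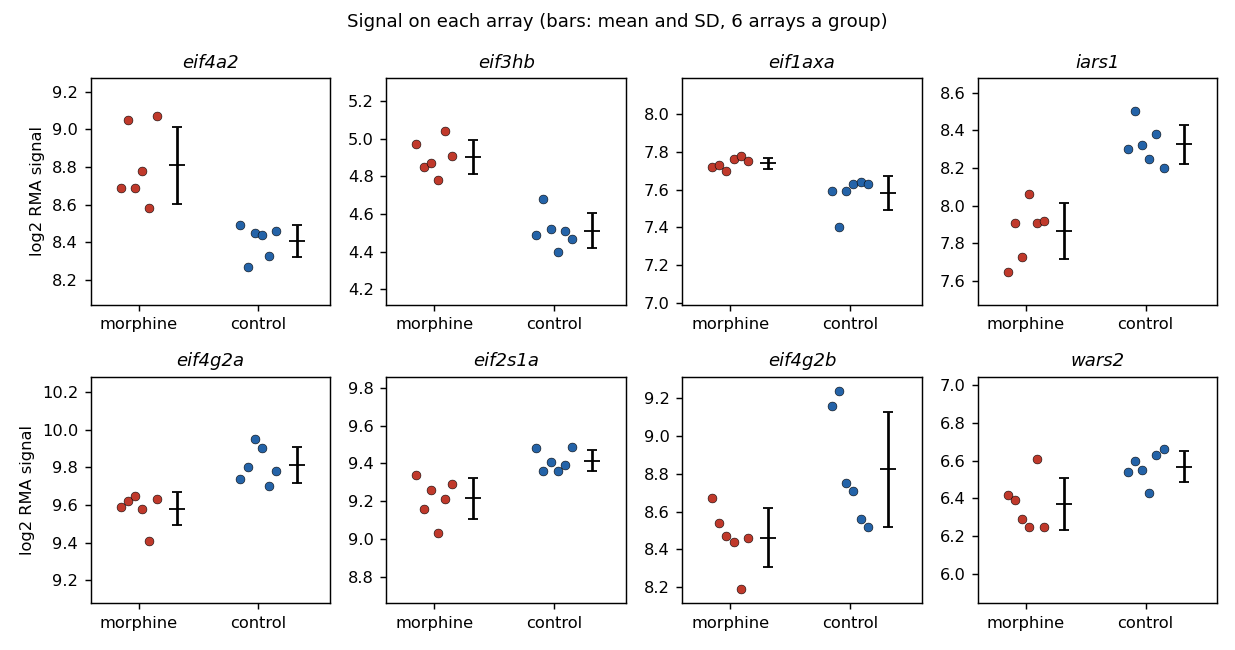
log2 RMA signal of the 6 called probe sets and of eif4g2b and wars2 on each array (points), with the morphine pools at the left and the control pools at the right of each panel, and the mean with SD beside them; every panel spans 1.2 log2 units. In the first 6 panels the groups do not overlap, while eif4g2b and wars2 overlap and control arrays 1 and 2 stand apart for eif4g2b.

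Of the 21 eIF4 probe sets 16 (76.2%) had a difference below 0, against 46.2% of all probe sets. Their median was -0.08, against 0.0089 over all. These 21 probe sets read 15 genes, so some genes count more than once, and the lean is a description only. In the eIF3 class 5 of 14 probe sets (35.7%) were below 0. The 2 called ones, eif4a2 and eif4g2a, made up 9.52% of the class, against 6.85% of all probe sets called. The cap-binding genes eif4ea, eif4e1b, eif4e1c and eif4e3 had differences between -0.13 and -0.02 over their 6 probe sets. The helicase cofactors eif4bb and eif4h differed by 0.08 (adjusted p = 0.607) and -0.03 (adjusted p = 0.836). The inhibitors that occupy eIF4E were not called either, with -0.11 for eif4ebp1 (adjusted p = 0.337), -0.10 for eif4ebp2 (adjusted p = 0.579) and 0.11 for eif4ebp3l (adjusted p = 0.299).

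The factors that join the ribosomal subunits showed no call. eif5, which triggers GTP hydrolysis by eIF2, differed by 0.02 (adjusted p = 0.88). The 2 probe sets of eif5b, which joins the large subunit, differed by -0.07 and 0.09. eIF5A, which carries the modified amino acid hypusine and helps the ribosome through stretches of proline, was read by 4 probe sets with differences from -0.10 to 0.07.

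The tRNA synthetases were covered by 29 probe sets for 21 genes, and 1 of them (3.45%) was called, against 6.85% of all probe sets. The cytosolic isoleucyl-tRNA synthetase iars1 had 7.65, 7.91 and 8.06 in morphine pools and 8.20, 8.31 and 8.50 in control pools as lowest, median and highest. The groups did not overlap, and even the highest morphine pool was below the lowest control pool. The difference of -0.46 (SE 0.07, adjusted p = 0.000956), or 0.726 times the control signal, was the largest in size of all 113 probe sets. It was called without any 1 of the 12 arrays, with differences of -0.50 to -0.42.

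No other cytosolic synthetase was called. Their 22 probe sets had differences between -0.16 and 0.19. The valine enzyme vars1 had the largest positive one, 0.19, with 7.17, 7.31 and 7.61 in morphine pools and 7.04, 7.13 and 7.28 in control pools as lowest, median and highest. These ranges overlapped (adjusted p = 0.185), and with the actin difference as a covariate the adjusted p was 0.0975. All 3 probe sets of the tyrosine enzyme yars1 were lower in mean in the morphine pools, by 0.10 to 0.16, and pairing by replicate number gave 1 of them an adjusted p of 0.0926, against 0.335 unpaired.

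Several cytosolic synthetases sit together in a multisynthetase complex, in which iars1 is joined by the enzymes for leucine, methionine, glutamine, lysine, arginine and others. The members of that complex measured here had differences of 0.06 for the brighter mars1 probe set, -0.12 to -0.03 for qars1, -0.03 for kars1 and -0.12 for rars1. Its auxiliary protein eef1e1 differed by -0.09 (adjusted p = 0.554). Among the genes outside the symbol rule, the scaffold genes aimp1a and aimp2 differed by -0.12 and -0.03 and eprs1, the enzyme for glutamate and proline, by 0.12, and none was called. Of the measured genes of the complex, iars1 was the 1 that passed the test.

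Mitochondrial synthetases charge the tRNAs used inside mitochondria and were read by 6 probe sets, none called. The nearest to a call was wars2, for tryptophan, with 6.25, 6.34 and 6.61 in morphine pools and 6.43, 6.58 and 6.66 in control pools as lowest, median and highest. Morphine pool 5 lay within the control range and the other morphine pools below it. The difference was -0.20 (SE 0.07, adjusted p = 0.105). Leaving out that pool gave -0.25 with an adjusted p of 0.0214, leaving out control array 4 gave 0.0907, and pairing by replicate number gave 0.0592. The other 10 omissions of 1 array gave no call, with an adjusted p of up to 0.215.

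Genes with eef symbols were covered by 15 probe sets, and none was called by limma. Besides the elongation factors they include eef1e1 of the multisynthetase complex and the modifiers eef1akmt2 and eef2k. Of the 15, 2 (13.3%) were under an unadjusted p of 0.05, against 16.6% of all probe sets. Both were among the 7 probe sets of eEF1 subunits, and none was among the 5 of eEF2. eef1a1l1, whose protein delivers charged tRNA to the ribosome, was bright and steady, with 13.82, 13.88 and 13.96 in morphine pools and 13.80, 13.87 and 13.94 in control pools as lowest, median and highest. Its difference was 0.02 (SE 0.05, adjusted p = 0.872). The ranges of the groups overlapped almost fully.

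The dim probe set of eef1a1a had 3.88, 3.93 and 3.99 in morphine pools and 3.67, 3.80 and 3.86 in control pools, without overlap. The difference was 0.14 (adjusted p = 0.149) at a signal near the bottom of the scale. eef1db, a subunit of the exchange factor that recharges eEF1A, had 11.002, 11.183 and 11.386 in morphine pools and 11.263, 11.387 and 11.519 in control pools as lowest, median and highest. It differed by -0.20 (adjusted p = 0.175), and without morphine array 1 by -0.24 (adjusted p = 0.0809). None of the other 11 omissions of 1 array gave a call (adjusted p up to 0.339). eef2b, which moves the ribosome by a codon, differed by 0.09 (adjusted p = 0.59), and eef2k, the kinase that switches it off, by -0.10 (adjusted p = 0.414).

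The release factor gene etf1b had 4 probe sets with differences from -0.01 to 0.09, and none was called. All of them overlapped between the groups.

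Other settings moved the number of lower calls more than the number of higher calls. Pairing the pools by replicate number left 3 members higher, against 4.53% of all probe sets, and gave 6 lower, against 5.44% of all, adding eif4g2b, wars2 and yars1. The SAM method of the study, written anew with 100 permutations, called 4 members higher, against 4.88% of all, and 7 lower, against 5.61%, adding eef1a1a on the higher side and eif4g2b, wars2, eef1db and eif1axb on the lower. In both settings more probe sets were called on the array as a whole too.

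Because several called genes have a near copy that was not called, the difference between the 2 probe sets was taken on each array and compared between the groups. This was done for 13 pairs after the calls were known, with an exact two-sided permutation test over the 12 arrays and p-values adjusted over the 13 pairs, and it sets changes and not levels side by side. Pairs that hold a called gene favour a large difference.

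The change of eif4a2 exceeded that of eif4a1a by 0.55 and that of eif4a1b by 0.48 log2 units, each with an exact p of 0.00216, the smallest this test can give (adjusted 0.00938). The change of eif3ha was 0.39 below that of eif3hb (exact p = 0.00216, adjusted 0.00938), and that of eif2s1a was 0.27 below that of eif2s1b (exact p = 0.00433, adjusted 0.0141). Each of these pairs holds a copy that had been called, so their p-values describe the gap and are no independent test of it. The eif4g2a and eif4g2b probe sets did not differ detectably, by 0.13 (exact p = 0.409, adjusted 0.443), both having a lower mean in the morphine pools.

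The remaining pairs gave smaller differences. eif3ja exceeded eif3jb by 0.24 (exact p = 0.0238, adjusted 0.0482) and eef1a1a exceeded eef1a1b by 0.16 (exact p = 0.026, adjusted 0.0482), and a test within same-numbered pairs, which cannot go below 0.0312, gave 0.0625 for each. The eef1a1a and eef1a1b probe sets are both dim, with control means of 3.79 and 3.45. Without control array 1, morphine array 1 or morphine array 3 their exact p was 0.0541 to 0.0628. For eif3ja and eif3jb it was 0.0519 without morphine array 2. The 2 probe sets of eif1axa differed in their change by 0.18 (exact p = 0.0216, adjusted 0.0482), so the higher call of that gene rests on 1 of its probe sets. The 2 probe sets of eif4g2a differed by -0.12 (exact p = 0.216, adjusted 0.256) and had the same direction. The other 4 pairs, of eif1ax, eif3e, eif4a1 and eif4g3 copies, had differences of -0.07 to 0.17 that did not pass (adjusted exact p 0.113 to 0.506). The eif1ax pair was formed from the brightest probe set of each copy, which for eif1axa is the uncalled one, and the called one was not set against eif1axb.

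**Figure D3:**
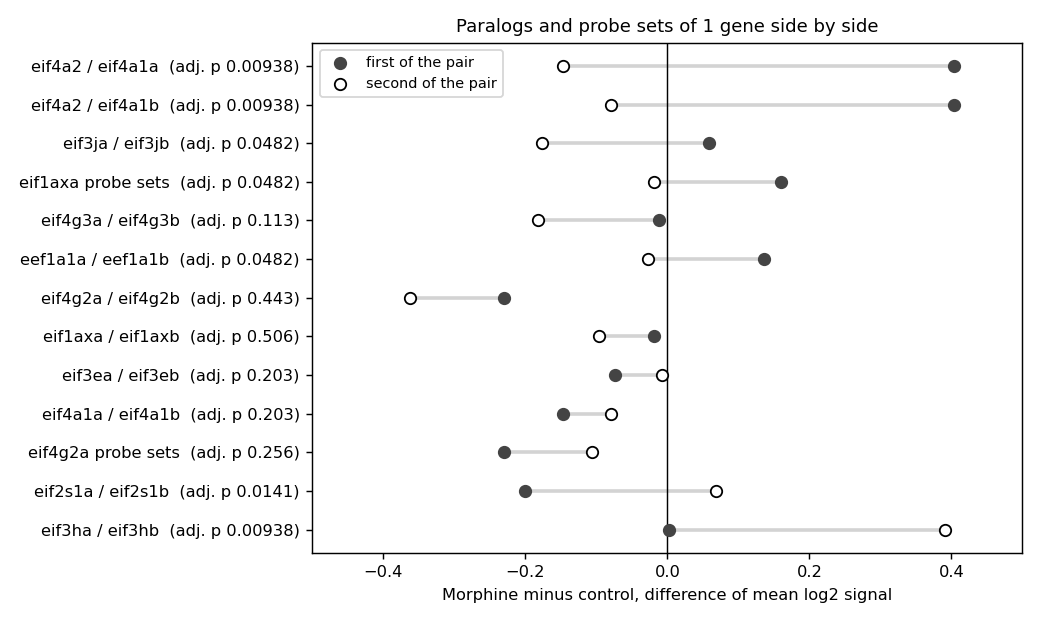
Difference in mean log2 signal, morphine minus control, for both members of 13 pairs of gene copies or of probe sets of 1 gene (filled circle for the first named, open circle for the second), with the adjusted exact p of the difference between them. The widest gaps belong to eif4a2 with eif4a1a and eif4a1b, and to eif3ha with eif3hb.

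Other genes of translation and of its control, taken from 7 lists of related factors, held 89 probe sets with 5 called higher and 2 called lower (7.87%, against 6.85% of all probe sets). Their median difference was 0.0016, against 0.0089 over all. The lists were chosen with earlier results of these data known, so the shares called in them are descriptions only. No probe set was called among 9 of mitochondrial translation factors, 7 of the hypusination pathway of eIF5A and 4 of selenocysteine incorporation. The 4 of a list with the multisynthetase scaffold genes aimp1a and aimp2, with eprs1 and with ptrh2 were not called either. Pairing by replicate number gave 9 calls in place of 7, adding ptrh2 of the last list (-0.24, adjusted p = 0.0659, against 0.145 unpaired) and hbs1l, a ribosome rescue factor of the termination list (-0.29, adjusted p = 0.00784, against 0.108 unpaired).

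Of 25 probe sets for termination, recycling and poly(A) binding, pabpc1b, a poly(A)-binding protein that links the mRNA tail to eIF4G, was higher at 0.37 (SE 0.09, adjusted p = 0.0289). The ATP-binding cassette protein gene abcf2a was lower at -0.24 (SE 0.06, adjusted p = 0.0292). The 3 probe sets of pabpc1a, a relative of pabpc1b, differed by -0.18 to 0.12 without a call.

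Genes listed here as targets of the integrated stress response, the program that follows phosphorylation of eIF2, gave 3 calls in 26 probe sets (11.5%). All 3 were higher, where 3.13% of all probe sets were called higher and 6.85% in either direction. The study had already listed sesn3, slc3a2 and vldlr as up-regulated, and the list was chosen with earlier results known. Its share is therefore a description only. sesn3, a sestrin that restrains mTOR, averaged 10.66 ± 0.11 in the morphine pools and 9.91 ± 0.07 in the control pools (SD, n = 6 each), without overlap, a difference of 0.75 (SE 0.06, adjusted p = 8.2e-07). slc3a2b, part of an amino acid transporter, was higher by 0.29 (adjusted p = 0.0372), and 1 of 3 probe sets of the lipoprotein receptor vldlr by 0.35 (adjusted p = 0.0227). The core genes of the response were not called, with atf4a at 0.15 (adjusted p = 0.305) and atf4b at 0.21 (adjusted p = 0.334). The asns probe sets differed by -0.16 and -0.08, and those of chac1 by 0.08 and 0.02. Over the list the median difference was 0.0530, against 0.0089 over all, and 30.8% were below 0, against 46.2% of all. That lean is likewise a description only. The arrays read RNA, so phosphorylation of eIF2 and protein levels were not measured.

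The mTOR pathway, which releases eIF4E from its inhibitors when nutrients are plentiful, had 2 calls in 14 probe sets (14.3%), against 6.85% of all probe sets. lamtor4, a part of the lysosomal anchor of mTOR, was lower in the morphine pools without overlap (difference -0.38, SE 0.06, adjusted p = 0.00214). tsc1a, a brake on the pathway, was higher by 0.29 (SE 0.09, adjusted p = 0.0665). The kinase gene mtor itself differed by -0.06 (adjusted p = 0.769).

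**Figure D4:**
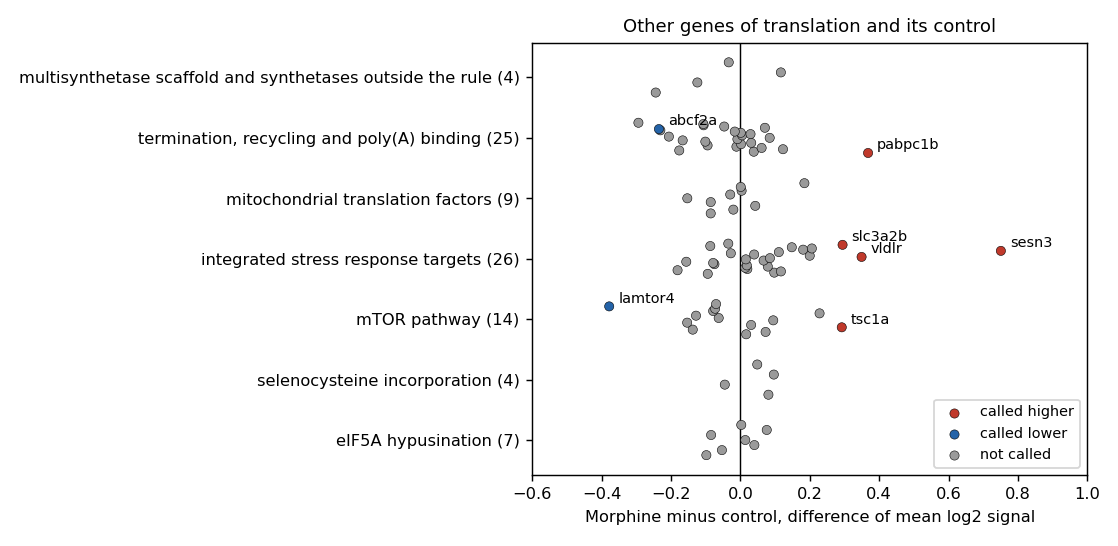
Difference in mean log2 signal, morphine minus control, for the 89 probe sets of 7 lists of other translation genes (rows, with the number of probe sets in brackets); coloured points passed an adjusted p of 0.10. sesn3 lies farthest from 0 at 0.75, and the called genes are spread over 3 of the 7 lists.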

How the data were processed

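RNA of 12 embryo pools (6 morphine, 6 control, grouped by the sample titles) had been hybridized by the authors to Affymetrix Zebrafish Genome Arrays. The deposited values are log2 signals after RMA background correction and normalization by the authors. Of 15617 probe sets, 115 array controls were left out and 15502 were tested. Genes came from the platform annotation, with 10795 probe sets of 1 gene, 135 of several and 4572 of none. The 9 member probe sets whose names carry a shared-sequence suffix may read more than 1 transcript, of the same gene or of another.

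Differences were fitted with limma 3.58.1 in R 4.3.3 (lmFit, eBayes) without a block, and p-values were adjusted by Benjamini-Hochberg across these probe sets, and a false discovery rate of 0.10, as in the study's methods, was the threshold for a call. The script was tested on simulated data. Python 3.11.15, pandas 2.3.3, numpy 2.4.6 and matplotlib 3.10.9 were used for summaries and plots. The members and lists were chosen with earlier results of these data known. Named with values were all called members and further probe sets of their genes, members listed by the study, eef1a1l1, the brightest and the most positive and negative probe set of each class, members called by SAM or with the replicate block, and called genes of the other lists. Further probe sets of a class or pair were chosen with their values in view.

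The sample titles number the pools of each group alike, and the meaning of a number is not stated. Deviations of same-numbered pools from their group means correlated at 0.225 to 0.471, all above 0.1. Of the 6 control arrays, however, 2 correlated best with the morphine array of their own number. Of the 6 morphine arrays, 1 did so with its control array, so the numbers are not shown to mark pairs. The fit with the number as a block is given beside a result where it changes the call, while the main fit stayed unpaired. Where nothing says that pools came from separate spawnings, p-values measure the spread between these pools. The number of arrays limits the precision. Alternatives were SAM, the block, other variance models, array weights, normalizations, filters, the actin covariate and leaving out each array. The difference between gene copies and the fit without the 3 arrays of lowest actin difference were added after the data were seen.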

Additional observations from a re-analysis of the deposited data

Results flagged for a closer look

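In 94 groups of 6 arrays, for the 47 probe sets named by rule, 8 had a single array far from the others by Dixon's test (the ratio of its gap to the nearest array over the whole range was above the critical value). Chance alone flags about 1 in 20 groups. At the called probe set of eif1axa, control array 2 was low at 7.40 with the nearest at 7.59 (ratio 0.759). Without that array the difference was 0.12 with an adjusted p of 0.161. At the called probe set of eif4g2a, morphine array 5 was low at 9.41 with the nearest at 9.58 (ratio 0.717), and the call held without it.

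The other flags fell on probe sets that were not called. eif2d was high on morphine array 3 (7.75, ratio 0.797) and on control array 5 (7.77, ratio 0.835). eif5 was low on morphine array 3 (10.10, ratio 0.705) and high on control array 2 (10.35, ratio 0.717). kars1 was low on morphine array 2 (10.57, ratio 0.627), and eif2b2 was high on control array 2 (9.64, ratio 0.765). Control array 2 thus carried 3 of the 8 flags.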

How the results depend on the processing

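The number of members called higher was 3 and stayed between 2 and 4 over all settings run, being 2 without any 1 array. The number called lower was 3, and it was 7 with SAM, 6 with the replicate block, 5 with the dim-probe filter and 5 with the actin covariate. The share of all probe sets called was 10.5% with SAM, 9.98% with the block, 9.95% with the filter and 9.22% with the covariate, against 6.85% in the main setting. Leaving out 1 array gave 2 to 5 lower calls, the highest without morphine array 1 or morphine array 5. Calls in the other lists, 7 in the main setting, were 13 with SAM, 9 with the replicate block and 6 to 11 when 1 array was left out, with 11 without morphine array 1. The members' median was -0.0205 and ranged from -0.0335 to -0.0150 over the arrays left out. The block changed no other call among the named members than those given for eif4g2b, wars2 and yars1. At an adjusted p under 0.05 the counts were 2 higher and 2 lower.

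Besides the losses of eif1axa and eif2s1a given above, eif1axa also lost its call with trend and robust variance (adjusted p = 0.157), array weights (0.133), median centring (0.117) and without the 3 arrays of lowest actin difference (0.275). Signs turned only for differences near 0 that were never called. The second eif1axa probe set ran from -0.0478 to 0.0037 over the arrays left out and eif2a from -0.0435 to 0.0183, with 0.0008 after quantile normalization. 1 probe set of eif5a2 ran from -0.0254 to 0.1498, with -0.0106 under array weights and -0.0359 without the 3 arrays. 1 probe set of etf1b ran from -0.0697 to 0.0458, with 0.0301 under array weights, 0.0095 after quantile normalization, 0.0186 with the actin covariate and 0.0630 without the 3 arrays. Another of etf1b, its brightest, ran from -0.0313 to 0.0334, with 0.0270 after quantile normalization and 0.0030 without the 3 arrays, and kars1 was 0.0191 after quantile normalization. The cause of these shifts was not tested.

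Dim probe sets such as eif3hb and eef1a1a lie near background, and 16 members had a control mean below 5. With 6 pools a group and a median SE of 0.0646, differences under about 0.2 log2 units were mostly not detectable after adjustment. The number of embryos per pool is approximate, and RNA from whole embryos averages all tissues.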
